A study of Mus musculus with 178 samples.

Results

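Muscle that had regenerated for 14 days after a notexin injury was set against undamaged muscle of the same kind, gene by gene, to see which transcripts still differed once new fibres had formed. Notexin, a phospholipase from snake venom, kills the fibres but spares the satellite cells that rebuild them. The members were 4 of the 178 libraries of the series and 4 of its 21 libraries of whole muscle. Day 14 muscle was tibialis anterior, a fast leg muscle, of wild-type mice on a B6 background, injected with notexin and taken 14 days later (2 libraries). Undamaged muscle was tibialis anterior of the same genotype and background with no damage (2 libraries). The other 17 whole-muscle libraries, from days 1, 2, 3, 4, 5, 6, 7 and 10, gave the spread of the test and the course between the end points. All groups here carried the wild-type alleles of the study, and no other allele or agent is named for the whole-muscle libraries. The sorted cells described at the end were also labelled wild type, and their fibro-adipogenic progenitors were gated on a PDGFRa EGFP signal. RNA came from a lysate of the whole digested muscle, so it holds every cell type of the tissue. The labels give neither age nor sex, and do not say whether the libraries of a day came from separate animals. The p-values therefore measure the spread between these libraries, which may be technical.

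In regeneration of this kind, neutrophils and then macrophages enter and clear dead fibres, satellite cells divide and fuse into new fibres, and stromal cells called fibro-adipogenic progenitors lay down a temporary matrix. New fibres first make embryonic and neonatal myosin heavy chains, which are replaced by adult ones as motor nerves return and fibres grow. Late in repair, the leukocytes leave or settle as resident cells, the matrix is remodelled, and capillaries are rebuilt around the fibres.

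Gene counts summed to 12294333 to 15014988 per library at day 14, against 10500791 to 11860624 in undamaged muscle, and to 10500791 to 15593938 over all 21 libraries. Levels are given in CPM, the counts for each 1000000 counted reads after scaling. Both groups had the transcripts of skeletal muscle. Acta1, skeletal alpha-actin, had 37176 and 40930 CPM at day 14, against 39496 and 38519 CPM in undamaged muscle, and Ckm, muscle creatine kinase, had 23881 and 28570 CPM at day 14, against 27887 and 27793 CPM. The replicate libraries of a group differed by more than counting noise (chi-square per gene 7.32 at day 14 and 2.86 in undamaged muscle, where 1 is pure counting noise).

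The libraries fall into 2 sets by the number in a code that their labels hold, and the sources used here do not say what the code means. Numbers 37 to 43 belong to the 14 libraries of day 14, days 1, 3, 4, 5 and 7 and day 6 libraries 2 and 3. Numbers 27 to 31 belong to the 7 libraries of undamaged muscle, day 2, day 10 and day 6 library 1. Between the sets, 803 of 14484 genes were called (5.54%), 474 higher in the higher numbers (3.27%) and 329 lower (2.27%), and some genes followed the number and not the day. Gdpd3, an enzyme that splits lysophospholipids, had 0.138 to 1.23 CPM in the 14 libraries of the higher numbers and 20.5 to 36.1 CPM in the 7 of the lower ones. BC002163 had 3.34 to 9.82 CPM in the higher set and 20.1 to 68.2 CPM in the lower one. These genes were singled out after their values were seen. Day 14 and undamaged muscle never share a set, so in a comparison of these 4 libraries alone the day and the code set cannot be told apart. Day 6 is the only day with both sets, and a fit with the set as an added term rests on its 1 library against 2. The overall counts and most counts of list members are therefore given in both versions, first with 1 mean per day over all 21 libraries and then with the set term added, a choice made after seeing the data.

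Of 14151 genes tested with edgeR, 2645 passed a threshold of 0.05 on the adjusted p (Benjamini-Hochberg) and are called here (18.7%), 1633 of them higher at day 14 (11.5%) and 1012 lower (7.15%). Of the called genes, 740 were higher and 213 lower by more than 1 on the log2 scale. The median log2 fold change of all genes was 0.03. Adding the set term left 789 of 14484 genes called (5.45%), 364 higher (2.51%) and 425 lower (2.93%). Of the 2645 genes called first, 2584 kept their direction with the set term and 480 were called in the same direction, 289 higher and 191 lower. Scaled by library totals alone, the median of all genes moved to 0.19 and the calls to 2278 higher and 468 lower, so that 83.0% of calls were higher, against 61.7% with the scaling used here. When 1 library was left out, the count of calls was 1695 without day 14 library 1, 1270 without day 14 library 2, 1169 without undamaged library 1 and 1088 without undamaged library 2. Counts of called members after leaving out a library are given below in that order. List counts below are to be read beside the shares of all genes, 11.5% higher and 7.15% lower. With the set term these shares were 2.51% and 2.93%. In these bulk libraries a change in the number of cells of a type and a change in RNA per cell cannot be told apart.

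**Figure D1:**
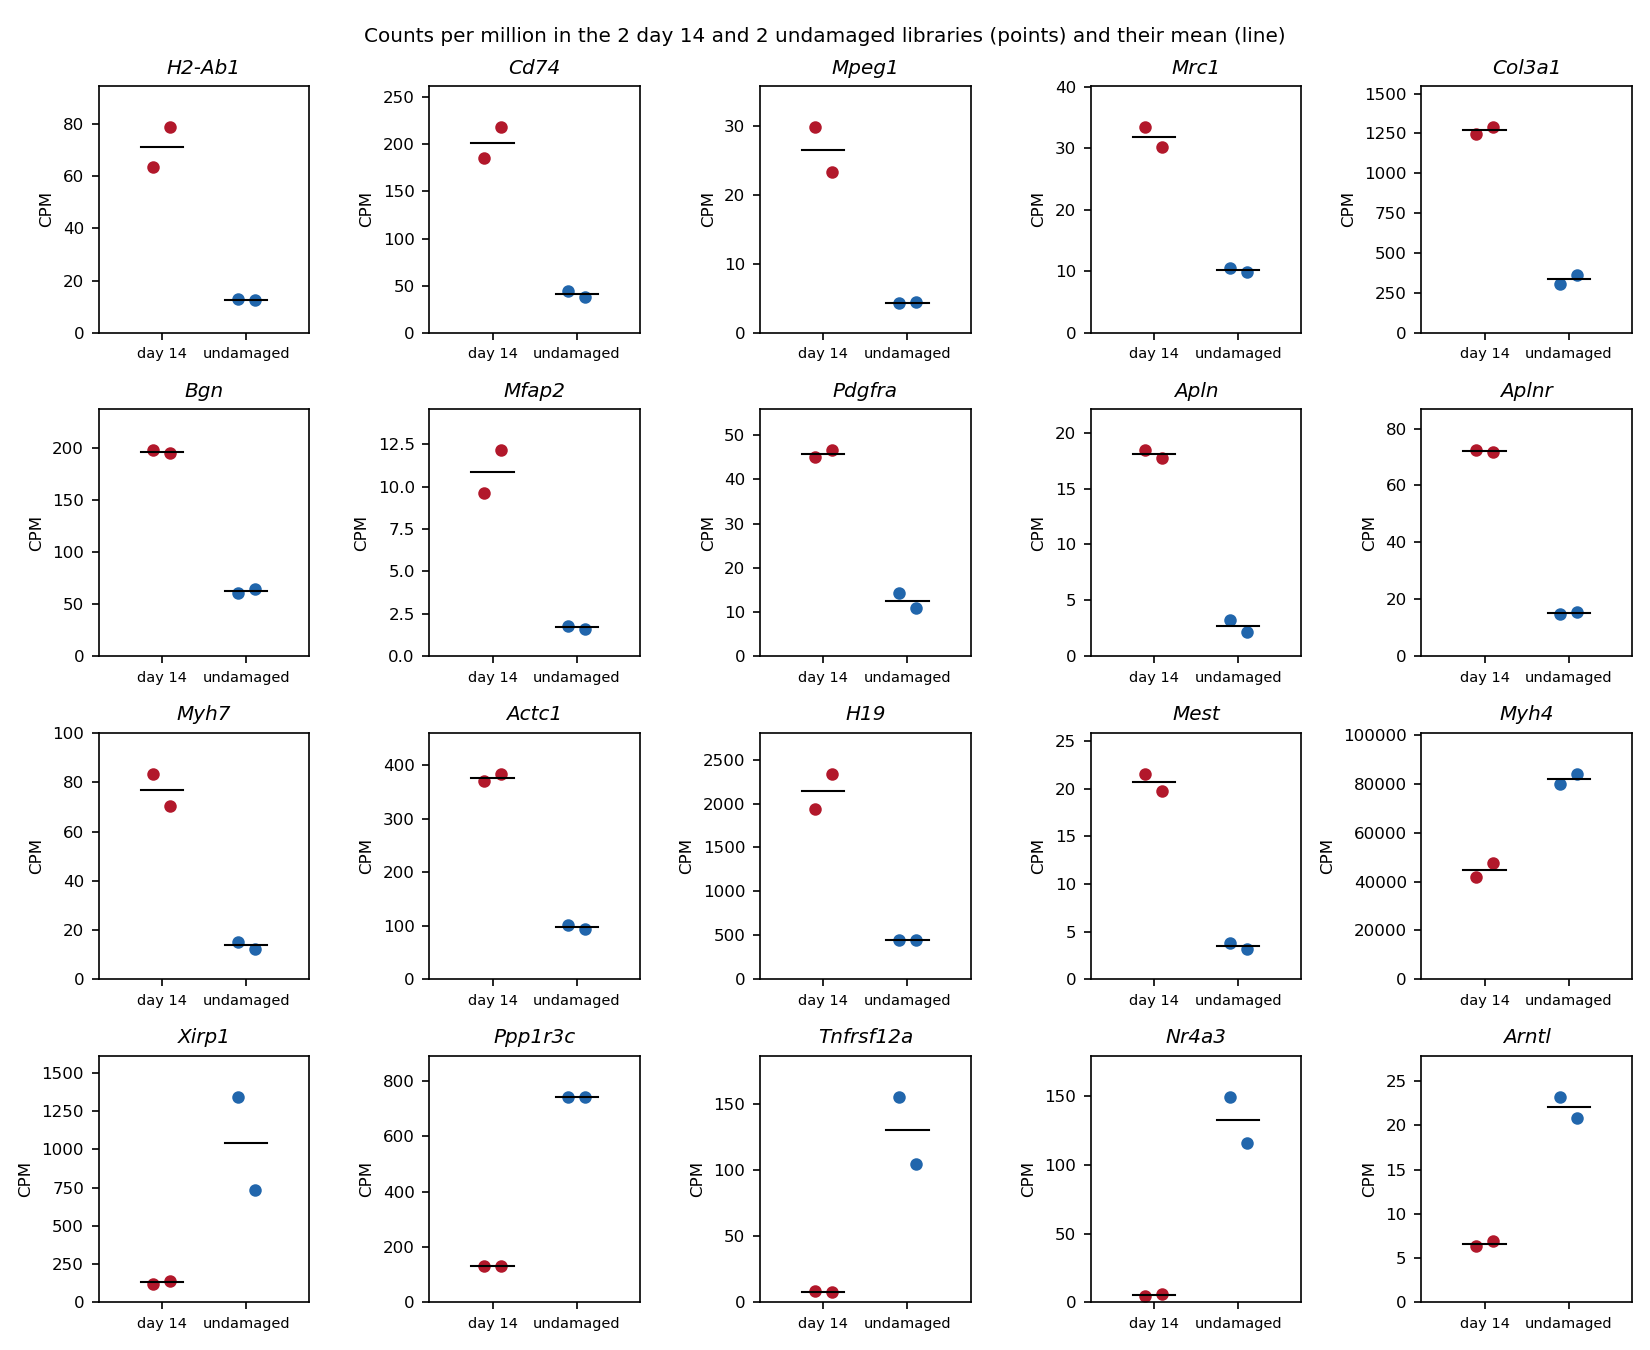
CPM (y axis, linear from 0) of 20 genes in day 14 muscle (red, left) and undamaged muscle (blue, right). Points are the 2 libraries of each group and lines are their mean. In every panel both day 14 libraries lie on the same side of both undamaged libraries.

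The embryonic and neonatal myosins, which mark young fibres, stood close to the undamaged level at day 14. Myh3, embryonic myosin heavy chain, had 15.4 and 12.04 CPM at day 14, against 8.41 and 10.6 CPM in undamaged muscle, after 4009 and 3897 CPM on day 4 and 86.9 and 94.7 CPM on day 10. Its difference from undamaged muscle missed the threshold (log2 fold change 0.54 ± 0.19 SE, edgeR adjusted p = 0.0549), and DESeq2, the fit of the 4 libraries alone and scaling by library totals called it higher. Myh8, neonatal myosin heavy chain, had 20.04 and 19.5 CPM at day 14, against 16.3 and 15.7 CPM (log2 fold change 0.30 ± 0.22, adjusted p = 0.352). Actc1, the cardiac actin that embryonic and regenerating fibres also make, had 369 and 384 CPM at day 14, against 102 and 94.5 CPM in undamaged muscle, a difference past the threshold (log2 fold change 1.94 ± 0.27, adjusted p = 0.000142; 1.93 with the set term, adjusted p = 0.00907). Nes, the intermediate filament nestin of young fibres and of the nerve-muscle junction, was higher as well, at 118 and 132 CPM against 81.1 and 68.5 CPM (adjusted p = 0.00141). Of the 12 developmental and regenerating fibre genes, all of which were tested, 2 were called higher and 4 lower at day 14 (3 higher and 1 lower with the set term), and their median log2 fold change was 0.08. Left out in turn, the 4 libraries gave 1, 3, 1 and 4 lower calls.

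Among the genes called lower at day 14 were some that respond to stretch and fibre stress. Xirp1, an actin-binding protein of injured and loaded fibres, had 122 and 141 CPM at day 14, against 1343 and 735 CPM in undamaged muscle. The day 14 libraries lay far below both undamaged ones, which themselves differed (log2 fold change −2.98 ± 0.36, adjusted p = 3.51e-05; −2.63 with the set term, adjusted p = 0.00964). Csrp3, the muscle LIM protein of the Z-disc, had 65.5 and 91.7 CPM, against 346 and 206 CPM (log2 fold change −1.81, adjusted p = 0.0106), and its call did not hold in every refit: the adjusted p was 0.0921 without day 14 library 1 and 0.112 without undamaged library 1. Ankrd1, a stretch-induced titin-binding repeat protein, had 52.5 and 41.00 CPM at day 14, against 142 and 51.02 CPM, where day 14 library 1 lies above undamaged library 2. Its call was weak (adjusted p = 0.0418), and the adjusted p was 0.0836 without day 14 library 1, 0.238 without day 14 library 2 and 0.848 without undamaged library 1, with a log2 fold change of −0.12 without undamaged library 1.

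Most slow fibre genes were higher in regenerated muscle. Myh7, the slow myosin heavy chain, had 83.6 and 70.2 CPM at day 14, against 15.3 and 12.4 CPM in undamaged muscle (log2 fold change 2.48 ± 0.51, adjusted p = 0.00272; 2.87 with the set term, adjusted p = 0.0408). On day 10 it had 175 and 175 CPM, and from day 1 to day 7 all libraries lay between 1.34 and 29.0 CPM. Myl2, the slow regulatory light chain, had 58.2 and 69.95 CPM, against 15.3 and 19.5 CPM in undamaged muscle (log2 fold change 1.87 ± 0.28, adjusted p = 0.000261). The slow troponins Tnnt1 and Tnni1 were called too, with log2 fold changes of 1.54 and 1.40. Of the 11 slow fibre genes tested, 7 were called higher and 1 lower, with a median of 1.19. Under the set term 5 were called higher, and 6, 6, 7 and 6 were called higher when the libraries were left out in turn. The member called lower was Myh7b, an ancient myosin gene whose locus holds a muscle microRNA (5.17 and 5.52 CPM at day 14, against 12.1 and 12.7 CPM; log2 fold change −1.21, −0.38 with the set term).

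The genes of fast fibres, the main fibres of this muscle, gave 1 call among 14 tested members and a median of −0.19. Myh4, the fastest myosin heavy chain (type IIb), had 41897 and 47576 CPM at day 14, against 80036 and 84259 CPM in undamaged muscle (log2 fold change −0.88 ± 0.27, adjusted p = 0.029). Its log2 fold change under the set term was −0.08 (adjusted p = 0.924), and the adjusted p was 0.157 without day 14 library 1, 0.104 without day 14 library 2, 0.101 without undamaged library 1 and 0.137 without undamaged library 2. On day 6, Myh4 had 37519 and 36429 CPM in the 2 libraries of the higher codes and 64226 CPM in the one of the lower codes. Myh1 and Myh2, the type IIx and IIa chains, did not pass with edgeR (log2 fold changes 0.15 and 0.62), though DESeq2 called Myh2 higher. Fitted alone, the 4 libraries gave 3 higher and 7 lower calls among the fast genes.

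**Figure D2:**
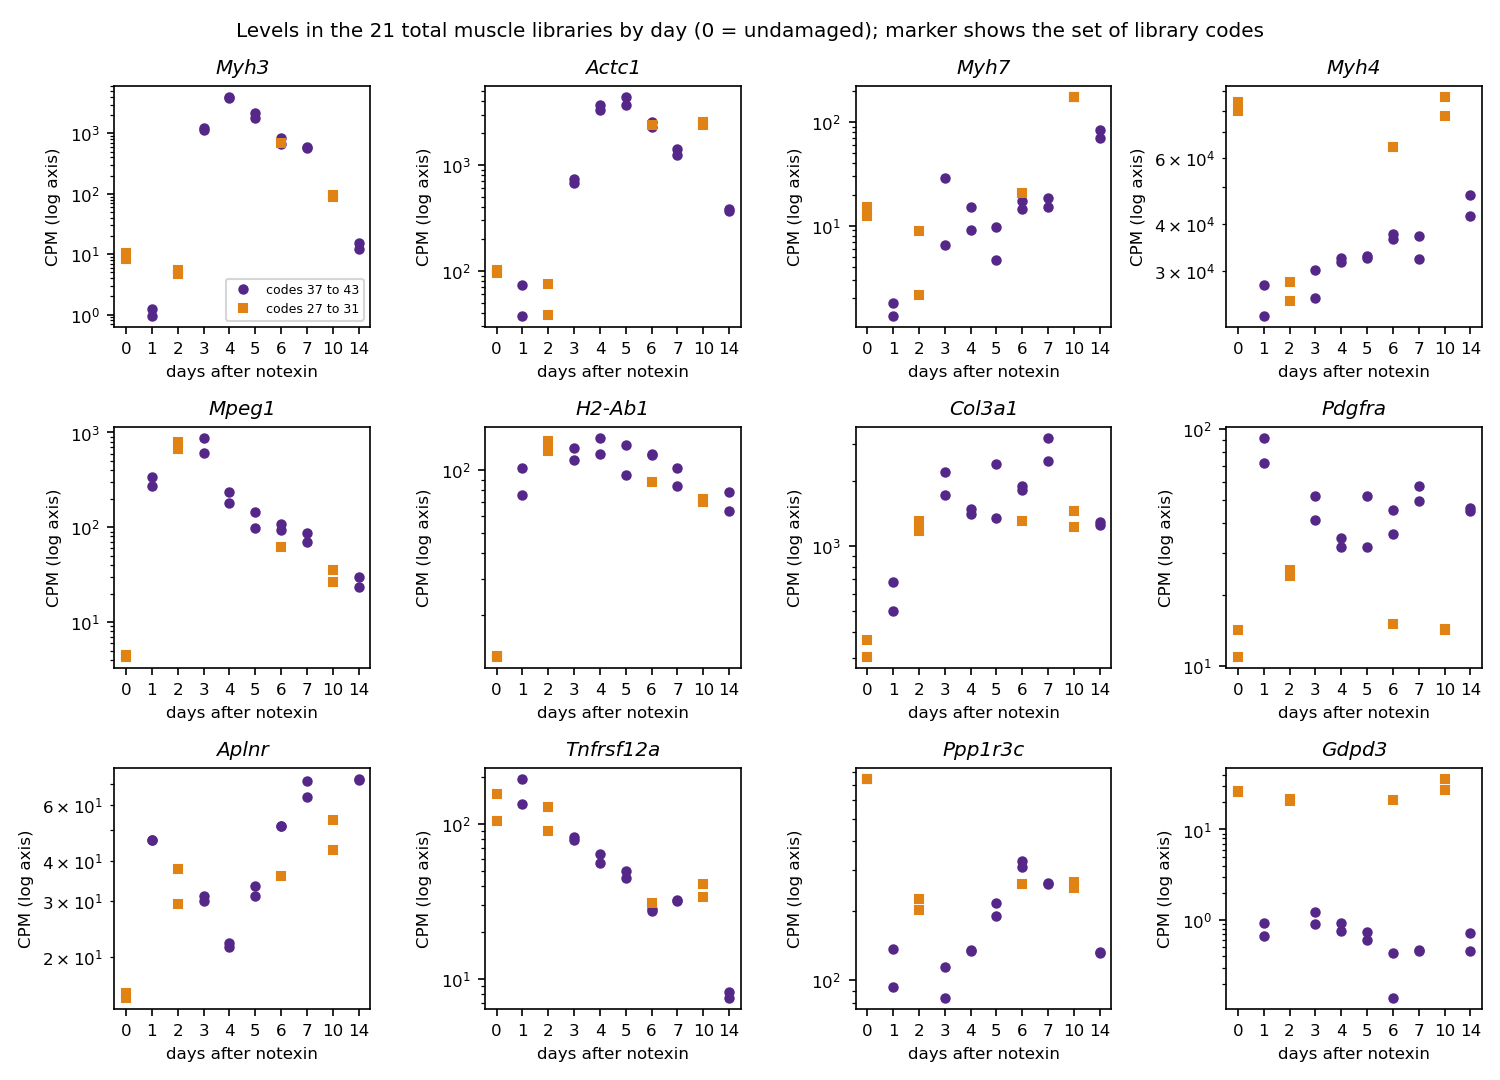
CPM (log axis) of 12 genes in the 21 whole-muscle libraries by day after notexin (x axis, 0 is undamaged). Purple circles are libraries with codes 37 to 43 and orange squares those with codes 27 to 31. Myh3 falls from day 4 to day 14, Mpeg1 and H2-Ab1 stay above undamaged muscle through day 14, and Gdpd3 follows the code set on every day.

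Among growth signals, Igf2, a fetal insulin-like growth factor, had 46.3 and 44.2 CPM at day 14, against 18.1 and 19.3 CPM in undamaged muscle (log2 fold change 1.27 ± 0.18, adjusted p = 0.000173; 0.74 with the set term, adjusted p = 0.0397). Igfbp5, an insulin-like growth factor binding protein, had 1094 and 1015 CPM, against 447 and 519 CPM (log2 fold change 1.13 ± 0.14, adjusted p = 5.68e-05; 1.07 with the set term). Both day 14 libraries of each gene lay above both undamaged ones. Mstn, myostatin, the brake on fibre growth, had 40.8 and 33.3 CPM at day 14, against 70.7 and 70.1 CPM (log2 fold change −0.92 ± 0.24, adjusted p = 0.013), but −0.21 with the set term (adjusted p = 0.777). For Mstn, the adjusted p was 0.122 without day 14 library 2, 0.068 without undamaged library 1 and 0.0689 without undamaged library 2. Fst, follistatin, which binds myostatin and activins, had 6.92 and 6.25 CPM at day 14, against 3.55 and 2.54 CPM (log2 fold change 1.12 ± 0.24, adjusted p = 0.00329); the adjusted p was 0.0711 without undamaged library 2. Of the 14 members of this growth factor list, 6 were called higher and 1 lower, with a median of 0.42 (2 higher with the set term, and 4, 5, 4 and 3 higher with a library left out).

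Proteolysis and atrophy genes gave 5 lower calls among 12 members, with a median of −0.41, and 1 lower call with the set term. Without a library in turn there were 2, 1, 1 and 2. Foxo1, the transcription factor that switches on atrophy genes, was the member called in both fits, with 38.04 and 36.95 CPM at day 14, against 53.99 and 57.8 CPM (log2 fold change −0.58 ± 0.10, adjusted p = 0.000597; −0.76 with the set term, adjusted p = 0.00407). Trim63, the ubiquitin ligase MuRF1, had 180.2 and 194 CPM at day 14, against 280.4 and 267 CPM (log2 fold change −0.55, adjusted p = 0.0251; −0.12 with the set term), and the adjusted p was 0.128 without day 14 library 1, 0.0875 without day 14 library 2, 0.13 without undamaged library 1 and 0.0916 without undamaged library 2. Fbxo32, the ligase atrogin-1, had 247 and 213 CPM, against 392 and 383 CPM, and missed the threshold (adjusted p = 0.0515), though DESeq2 called it, and its sign was the opposite with the set term (0.27).

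The energy genes mostly did not pass the test. Of 19 oxidative phosphorylation subunits none was called by edgeR or DESeq2, or had an unadjusted p under 0.05, and their median log2 fold change was −0.03. Of 16 glycolysis and glycogen genes 2 were called lower, Hk2 and Fbp2, against 7.15% of all genes, and 2 in each refit without a library. With the set term none was called by edgeR (2 higher and 1 lower at an unadjusted p under 0.05). Hk2, the hexokinase that insulin and exercise induce, had 586 and 589.7 CPM at day 14, against 1688 and 1371 CPM in undamaged muscle (log2 fold change −1.38 ± 0.21, adjusted p = 0.000262; −1.11 with the set term, adjusted p = 0.0502). Ppargc1a, a coactivator that drives mitochondrial genes, had 47.00 and 41.3 CPM, against 143 and 123 CPM (log2 fold change −1.59 ± 0.29, adjusted p = 0.00106; −1.95 with the set term, adjusted p = 0.0178). Pdk4, the kinase that shuts off pyruvate oxidation in fasting, had 371 and 374 CPM, against 1118 and 895 CPM (log2 fold change −1.43, adjusted p = 0.00554; −0.29 with the set term), and the adjusted p was 0.0531 without undamaged library 1. Ppp1r3c, which brings a phosphatase to glycogen, had 132 and 131 CPM at day 14, against 743 and 742 CPM in undamaged muscle, with replicates nearly equal (log2 fold change −2.50 ± 0.17, adjusted p = 6.81e-08; −2.78 with the set term, adjusted p = 6.52e-06).

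Dmd, the gene of dystrophin, which ties the fibre's skeleton to its matrix, had 73.2 and 38.1 CPM at day 14, against 186 and 193 CPM in undamaged muscle (log2 fold change −1.76 ± 0.35, adjusted p = 0.00248). The day 14 libraries lay below both undamaged ones and differed from each other. The log2 fold change with the set term was −1.36 (adjusted p = 0.165), and the adjusted p was 0.05005 without day 14 library 2. Its longest annotated transcript has 14910 bases. The 610 genes with transcripts of 8 to 16 kb had a median log2 fold change of −0.14 between the same groups, and the part of transcript length in the Dmd value was not tested. Of the 15 dystrophin complex and costamere genes, 1 was called higher (Lama2, below) and 3 lower, with a median of −0.07. The shares of all genes were 11.5% and 7.15%. With the set term 1 was called, higher, and the lower calls without a library in turn were 1, 0, 2 and 1.

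Satellite cell genes gave 3 higher and 2 lower calls among 12 members (median 0.27), where 11.5% of all genes were higher and 7.15% lower. With the set term 2 members were called, both lower. Pax7, the factor that defines satellite cells, had 4.66 and 5.7 CPM at day 14, against 2.6 and 2.11 CPM in undamaged muscle (log2 fold change 1.13 ± 0.30, adjusted p = 0.0132; 0.98 with the set term, adjusted p = 0.203). For Pax7, the adjusted p was 0.092 without day 14 library 2, 0.0511 without undamaged library 1 and 0.13 without undamaged library 2. Higher calls in the list were 1, 1, 1 and 1 with a library left out. Myod1 and Myog, which drive commitment and differentiation, did not pass. Myod1 had 45.8 and 56.3 CPM at day 14, against 37.9 and 41.5 CPM, and Myog had 3.79 and 3.31 CPM, against 6.75 and 4.96 CPM. Among 18 genes of the nerve-muscle junction and of denervation, 2 were called higher and 1 lower (median 0.13), and 1 higher and 2 lower with the set term. In the first fit 11.5% of all genes were higher and 7.15% lower, so this list lay near the overall shares. Both higher calls were lost without each of the 4 libraries. Chrng, the fetal acetylcholine receptor subunit that reappears on denervated fibres, had 0.219 and 0.0919 CPM at day 14, against 0.355 and 0.423 CPM, after 3.13 and 1.44 CPM on day 10.

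Of the immune lists, the highest median fold change was that of the major histocompatibility complex (MHC) class II genes, whose products present peptides to CD4 T cells on macrophages, dendritic cells and B cells. All 7 members were tested and called higher at day 14, against 11.5% of all genes, and all 7 stayed called without each of the 4 libraries. Their median log2 fold change was 2.39, and with the set term 5 were called and the median was 2.07. The T and NK cell markers, of which 7 were tested, had nearly the same median (2.37), and dendritic cell markers had 2.02. Both of those lists were close to the detection limit. H2-Ab1 (chromosome 17, 34257689 to 34269419, GRCm38), a beta chain, had 63.7 and 78.9 CPM at day 14, against 12.8 and 12.6 CPM in undamaged muscle (log2 fold change 2.49 ± 0.21, adjusted p = 1.02e-06; 2.07 with the set term, adjusted p = 0.000275). H2-Aa, its alpha chain, had 84.1 and 89.9 CPM, against 17.6 and 13.8 CPM, and H2-Eb1, the beta chain of the other class II molecule, had 70.5 and 79.8 CPM, against 13.9 and 14.05 CPM. Cd74, the invariant chain that guides class II molecules, had 185 and 218 CPM at day 14, against 44.5 and 37.7 CPM (log2 fold change 2.30 ± 0.22, adjusted p = 3.32e-06). Ciita, the transactivator of this gene set, had only 2.33 and 3.68 CPM, against 0.474 and 0.634 CPM (log2 fold change 2.39; 2.26 with the set term, adjusted p = 0.0373). H2-DMb1, part of the molecule that loads the peptide, had 3.21 and 3.86 CPM, against 0.829 and 0.739 CPM, and did not pass with the set term (1.60, adjusted p = 0.121). From day 2 to day 5 H2-Ab1 had between 94.6 and 142.9 CPM, and on day 10 69.9 and 72.2 CPM.

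Since these genes moved together, the 250 bases before the start of 3 of them are shown as RefSeq gives them for GRCm38.p6. A promoter was in the sequence table for 4 of the 7. The 3 shown were chosen by name among these 4, so their matches give no share for the list. Class II promoters are known for a Y box and an X box to which the factors that recruit Ciita bind. Capitals mark matches, on either strand, to GATTGG (the core of the Y box), to AACTNNTGA (part of an X box, N being any base) and to TGACGTCA (the cyclic AMP response element, which an X2 box can resemble). The H2-Aa window is chr17:34287824-34288073 (minus strand), that of H2-Eb1 is chr17:34305617-34305866 and that of H2-DMb1 is chr17:34152941-34153190 (both plus strand), each written 5′ to 3′ in the direction of the gene.
H2-Aa: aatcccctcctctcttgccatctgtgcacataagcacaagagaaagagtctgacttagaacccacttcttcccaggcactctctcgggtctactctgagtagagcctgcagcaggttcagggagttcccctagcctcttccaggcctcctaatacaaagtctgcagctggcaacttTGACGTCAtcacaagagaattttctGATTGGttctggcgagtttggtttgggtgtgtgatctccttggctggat
H2-Eb1: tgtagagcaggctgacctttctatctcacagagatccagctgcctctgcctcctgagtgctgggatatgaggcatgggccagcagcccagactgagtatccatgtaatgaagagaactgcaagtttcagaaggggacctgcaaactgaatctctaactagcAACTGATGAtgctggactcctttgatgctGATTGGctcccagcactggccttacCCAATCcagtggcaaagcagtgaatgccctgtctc
H2-DMb1: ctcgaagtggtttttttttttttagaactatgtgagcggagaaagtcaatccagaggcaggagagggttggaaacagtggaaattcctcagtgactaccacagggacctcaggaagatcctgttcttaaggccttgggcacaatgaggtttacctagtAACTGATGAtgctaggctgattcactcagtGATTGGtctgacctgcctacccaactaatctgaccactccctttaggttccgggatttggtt
GATTGG was in all 3 windows, 49 bases before the start in H2-Aa, 60 in H2-Eb1, where a reverse match follows at 35, and 62 in H2-DMb1. AACTNNTGA was in H2-Eb1 and H2-DMb1, 89 and 92 bases before the start, and TGACGTCA in H2-Aa, 74 bases before it. The gene annotation used for the other positions here starts H2-DMb1 at 34153072, inside its window. Distances for H2-DMb1 therefore refer to the RefSeq start only. Of 32851 promoter windows of this length, 14.6% held GATTGG, 3.19% AACTNNTGA and 1.55% TGACGTCA. The matches are a description of the sequence, and no overlap between them was found in these windows.

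Of 17 leukocyte and macrophage markers, 16 were called higher at day 14, against 11.5% of all genes. All 6 leukocyte markers were called higher, with a median of 1.68, but none by edgeR with the set term (3 at an unadjusted p under 0.05), and 3, 6, 3 and 1 were called with a library left out. Cd52, a small glycoprotein of lymphocytes and monocytes, had 3.28 and 3.68 CPM, against 0.71 and 0.423 CPM (log2 fold change 2.61 ± 0.61, adjusted p = 0.00653; 1.52 with the set term, adjusted p = 0.179); the adjusted p was 0.0838 without undamaged library 2. Of 11 macrophage markers, 10 were called higher (median 1.90), 3 with the set term and 9, 10, 10 and 8 with a library left out. Mpeg1, a pore-forming protein of macrophages, had 29.9 and 23.3 CPM at day 14, against 4.26 and 4.44 CPM in undamaged muscle (log2 fold change 2.61 ± 0.34, adjusted p = 7e-05; 1.90 with the set term, adjusted p = 0.0104). Its highest library, on day 3, had 875.7 CPM, so day 14 lay far below the peak and above undamaged muscle. Adgre1, the F4/80 antigen, had 11.3 and 10.3 CPM, against 2.49 and 2.01 CPM (log2 fold change 2.27, adjusted p = 0.00179; 1.85 with the set term, adjusted p = 0.0791). Ctss, the cathepsin of antigen-presenting cells, had 21.4 and 19.03 CPM, against 3.79 and 3.8 CPM (log2 fold change 2.41, adjusted p = 0.000804).

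Genes of macrophages that reside in healthy muscle did not move as one. Mrc1, the mannose receptor, had 33.4 and 30.2 CPM at day 14, against 10.54 and 9.82 CPM in undamaged muscle (log2 fold change 1.65 ± 0.18, adjusted p = 1.21e-05; 1.28 with the set term, adjusted p = 0.00447). Folr2, a folate receptor of resident macrophages, had 6.41 and 8.18 CPM, against 1.66 and 2.22 CPM (log2 fold change 1.89, adjusted p = 0.00354; 1.84 with the set term, adjusted p = 0.0801). Cd163, the haemoglobin scavenger receptor, had 12.7 and 11.9 CPM, against 9.35 and 8.77 CPM, and did not pass (log2 fold change 0.44, adjusted p = 0.131). Lyve1, a hyaluronan receptor, had 5.83 and 6.71 CPM at day 14, against 5.92 and 4.44 CPM (adjusted p = 0.638). In all, 3 of the 8 resident macrophage genes were called higher, 3 with the set term and 3 in each refit without a library, and the median was 0.37. Mrc1 and F13a1, a transglutaminase subunit, were called both with and without the set term.

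Of 11 genes of repair and lipid-handling macrophages, 4 were called higher (median 1.10) and 1 with the set term. With a library left out the count was 3, 2, 1 and 2. Apoe, the lipid carrier that macrophages, pericytes and other stromal cells make, had 248 and 324 CPM at day 14, against 104 and 92.9 CPM (log2 fold change 1.54 ± 0.23, adjusted p = 0.000215; 1.15 with the set term, adjusted p = 0.0452). Trem2, a lipid-sensing receptor, had 2.4 and 2.57 CPM, against 0.474 and 0.211 CPM (log2 fold change 2.86 ± 0.85, adjusted p = 0.0254), and the adjusted p was 0.0671 without day 14 library 1, 0.0853 without day 14 library 2, 0.086 without undamaged library 1 and 0.18 without undamaged library 2, with a log2 fold change of 3.50 in the fit without undamaged library 1. Spp1, osteopontin, had 6.63 and 8.18 CPM at day 14, against 10.2 and 19.96 CPM, and did not pass (adjusted p = 0.41). Among 6 monocyte markers 2 were called higher and 1 lower, and none by edgeR with the set term (2 higher and 1 lower at an unadjusted p under 0.05). Without each of the 4 libraries 2 were called higher and none lower. The 2 higher calls of the first fit were Ccr2 and Fn1. Ccr2, the chemokine receptor of inflammatory monocytes, had 10.3 and 10.48 CPM, against 4.14 and 2.54 CPM. Its edgeR log2 fold change was 1.65 ± 0.28 (adjusted p = 0.000709), and 1.14 with the set term (adjusted p = 0.0626). Fn1, fibronectin, is also counted below among the provisional matrix genes. In sorted fibro-adipogenic progenitors it had means of 7379 CPM undamaged and 8511 CPM at day 14. Inflammatory cells had 2870 CPM undamaged and 2774 CPM at day 14.

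Neutrophil genes were near 0 at day 14 and low in undamaged muscle. S100a8, a calgranulin of neutrophils, had 0.291 and 0 CPM at day 14, against 2.96 and 7.39 CPM in undamaged muscle. Its partner S100a9 had 0.583 and 0.184 CPM, against 5.21 and 8.56 CPM. The day 14 values of S100a8 are 4 reads in library 1 and none in library 2. Both genes were called lower (log2 fold changes −4.94 ± 1.02 and −4.07 ± 0.89, adjusted p = 0.00287 and 0.00436), and neither with the set term (adjusted p = 0.316 and 0.352). For S100a8, the adjusted p was 0.0565 without undamaged library 2, and its log2 fold change was −9.20 without day 14 library 1, where the other day 14 library has no read. For S100a9 it was −5.17 without the same library. Of the 6 tested members of this list of 7, these 2 were called by edgeR, 3 by DESeq2, and 2, 2, 3 and 1 by edgeR with a library left out. The fitted fold change of S100a8 depends on day 14 reads near 0 and is no bound. Lymphocyte and dendritic cell genes were close to the detection limit. Of 13 T and NK cell markers 7 passed the filter on low counts and 1 was called higher, also with the set term and without each of the 4 libraries. Of 8 B and plasma cell markers 3 passed and 1 was called higher, but none by edgeR without each of the 4 libraries or with the set term (none at an unadjusted p under 0.05), and 1 by DESeq2. None of the 8 dendritic cell markers, all tested, was called by edgeR, 1 was by DESeq2 and 2 had an unadjusted p under 0.05, with summed levels of 11.1 and 10.1 CPM at day 14, against 9.24 and 7.29 CPM. Among mast cell genes, 3 of 5 tested members (of 6) were called higher and none by edgeR with the set term (2 at an unadjusted p under 0.05), with 2, 2, 2 and 1 called when a library was left out. Kit, the stem cell factor receptor, which endothelial cells also express, had 9.11 and 10.7 CPM, against 2.13 and 2.64 CPM (log2 fold change 2.04 ± 0.35, adjusted p = 0.000746; 0.83 with the set term, adjusted p = 0.333).

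Complement genes gave 9 higher calls among 15 members (median 0.91), 2 with the set term and 7, 6, 6 and 5 with a library left out. C1qb, a chain of the recognition molecule C1q that macrophages make, had 29.9 and 41.6 CPM at day 14, against 9.59 and 5.7 CPM (log2 fold change 2.23 ± 0.35, adjusted p = 0.000374; 1.49 with the set term, adjusted p = 0.0636). C1ra, the protease that C1q activates, had 19.5 and 24.3 CPM, against 6.63 and 8.13 CPM (log2 fold change 1.56 ± 0.23, adjusted p = 0.00023; 1.00 with the set term, adjusted p = 0.065). The central component C3 and C4b did not pass, with log2 fold changes of 0.39 and −0.27. Of 12 interferon response genes 2 were called higher (median 1.06), against 11.5% of all genes, and 1 with the set term (median 0.15). The call in both was Cxcl9, a chemokine for T cells that interferon gamma induces, at 3.93 and 4.23 CPM, against 0.947 and 0.739 CPM (log2 fold change 2.27 ± 0.49, adjusted p = 0.00414; 2.46 with the set term, adjusted p = 0.0275), and the adjusted p was 0.06 without undamaged library 2. Irf7, a master factor of the type I response, had 9.11 and 9.38 CPM at day 14, against 4.85 and 3.91 CPM, did not pass and changed sign with the set term (1.08, then −0.32).

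**Figure D3:**
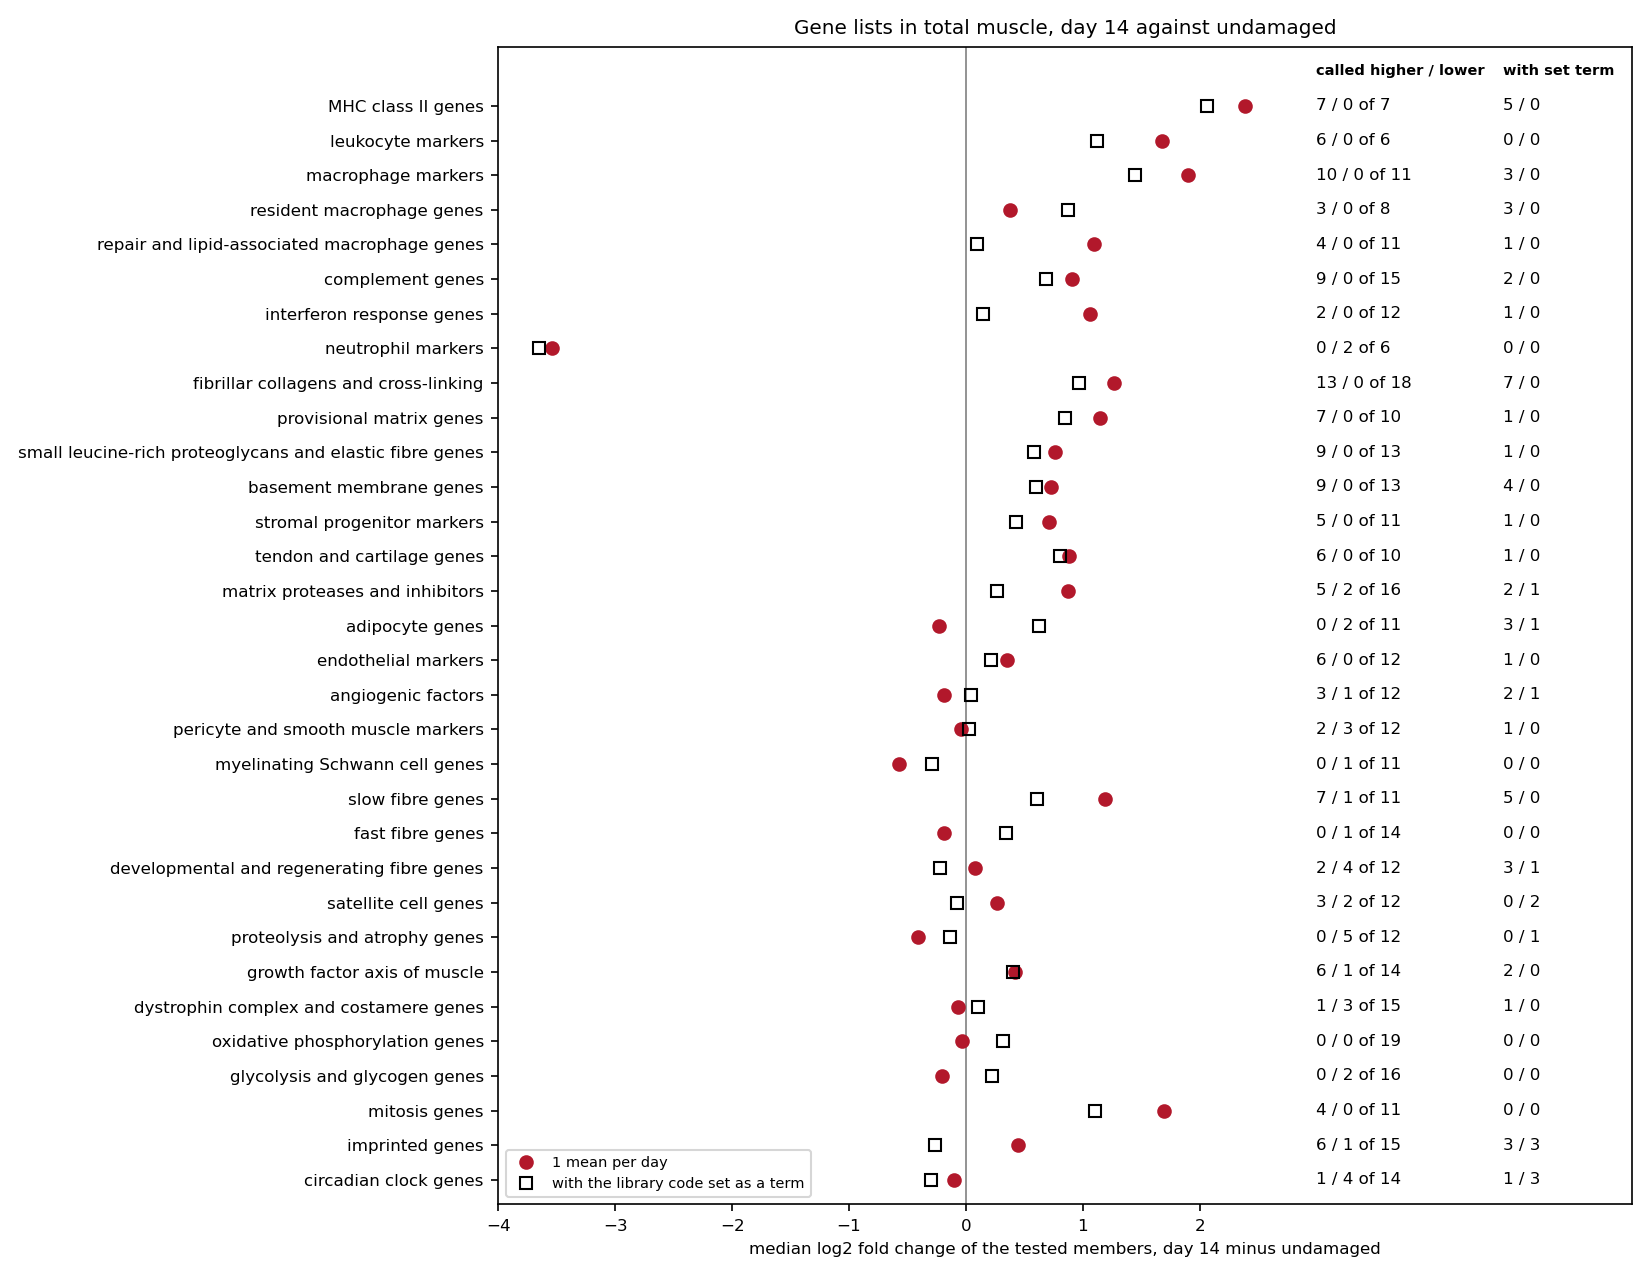
Median log2 fold change (x axis, day 14 minus undamaged) of the tested members of 32 gene lists (rows), in the fit with 1 mean per day (red circles) and with the code set as a term (open squares). Numbers at the right count the members called higher and lower in each fit. MHC class II, macrophage and collagen lists lie above 0 in both fits, and the medians of adipocyte, fast fibre and imprinted genes, among others, lie on opposite sides of 0 in the 2 fits.

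Many matrix genes were higher at day 14. Of 18 fibrillar and associated collagens and cross-linking enzymes, 13 were called higher, with a median of 1.27, and 13, 12, 11 and 13 were higher with a library left out. Under the set term 7 were called and the median was 0.97. Col3a1, the collagen of loose and healing tissue, had 1249 and 1290 CPM at day 14, against 304 and 364 CPM in undamaged muscle (log2 fold change 1.92 ± 0.25, adjusted p = 7e-05; 1.42 with the set term, adjusted p = 0.0211). Col1a1, of the stiffer type I fibre, had 953 and 1025 CPM, against 258 and 336 CPM (log2 fold change 1.74 ± 0.30, adjusted p = 0.000826), and did not pass with the set term (1.05, adjusted p = 0.155). Col15a1, a collagen of the border between basement membrane and stroma, had 139.98 and 145 CPM, against 44.8 and 39.2 CPM (log2 fold change 1.77 ± 0.19, adjusted p = 1e-05; 1.33 with the set term, adjusted p = 0.00447). Lox, the lysyl oxidase that cross-links collagen, had 31.6 and 29.7 CPM, against 26.5 and 23.5 CPM, and did not pass (log2 fold change 0.30, adjusted p = 0.346; −0.37 with the set term).

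Provisional matrix genes, which healing tissue makes first, gave 7 higher calls among 10 members (median 1.15), 1 with the set term and 4, 6, 5 and 5 with a library left out. The call in both fits was Sparc, a collagen-binding protein, at 1100 and 1087 CPM at day 14, against 427 and 407 CPM (log2 fold change 1.39 ± 0.18, adjusted p = 5.68e-05; 0.97 with the set term, adjusted p = 0.0202). Fn1, fibronectin, had 294 and 289 CPM, against 112 and 118 CPM (log2 fold change 1.34, adjusted p = 0.00146; 0.94 with the set term, adjusted p = 0.156). Of 13 small leucine-rich proteoglycan and elastic fibre genes 9 were called higher (median 0.77), 1 with the set term and 6, 5, 7 and 3 with a library left out. Bgn, biglycan, had 198 and 195 CPM at day 14, against 60.4 and 64.9 CPM (log2 fold change 1.65 ± 0.23, adjusted p = 0.000152; 1.11 with the set term, adjusted p = 0.0474). Outside these lists, Mfap2, a protein of the microfibrils around elastic fibres, had 9.62 and 12.1 CPM, against 1.78 and 1.58 CPM (log2 fold change 2.69 ± 0.38, adjusted p = 0.000137; 1.83 with the set term, adjusted p = 0.0271).

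Basement membrane genes, of the sheet around each fibre and capillary, gave 9 higher calls among 13 members (median 0.73), 4 with the set term and 9, 7, 8 and 7 with a library left out. Lama2, the laminin chain of the muscle fibre sheath, had 105 and 103 CPM at day 14, against 62.99 and 63.7 CPM (log2 fold change 0.72 ± 0.12, adjusted p = 0.000804; 1.10 with the set term, adjusted p = 0.000275). Col4a1, of the collagen IV network, had 698 and 738 CPM, against 281 and 233 CPM (log2 fold change 1.48 ± 0.18, adjusted p = 3.06e-05; 1.16 with the set term, adjusted p = 0.0104). Of 16 matrix proteases and their inhibitors 5 were called higher and 2 lower (2 and 1 with the set term). Mmp2, a gelatinase of stromal cells, had 159 and 167 CPM at day 14, against 49.97 and 57.04 CPM (log2 fold change 1.60 ± 0.19, adjusted p = 2.67e-05; 1.19 with the set term, adjusted p = 0.012).

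Markers of the stromal cells themselves divided. Pdgfra, the growth factor receptor that defines fibro-adipogenic progenitors, had 45.1 and 46.6 CPM at day 14, against 14.2 and 10.9 CPM in undamaged muscle (log2 fold change 1.87 ± 0.35, adjusted p = 0.00137). On day 6, the only day with both code sets, Pdgfra had 45.5 and 36.0 CPM in libraries 2 and 3, of the higher codes. Library 1, of the lower codes, had 14.96 CPM. With the set term, which rests on that day, the edgeR log2 fold change of Pdgfra was 0.43 (adjusted p = 0.53). Cd34, on stromal, endothelial and satellite cells, had 173 and 174 CPM at day 14, against 84.3 and 74.2 CPM (log2 fold change 1.13 ± 0.13, adjusted p = 2.2e-05; 0.98 with the set term, adjusted p = 0.00661). Ly6a, the Sca1 antigen, had 55.9 and 56.8 CPM, against 59.9 and 48.5 CPM, with overlapping groups (log2 fold change 0.06, adjusted p = 0.843). In all 5 of 11 stromal progenitor markers were called higher (median 0.71), with 1 under the set term and 6, 4, 5 and 3 with a library left out. Tendon and cartilage genes gave 6 higher calls among 10 (median 0.88), 1 with the set term and 3, 1, 1 and 1 with a library left out. The call that held was Tnmd, tenomodulin of tendon cells, at 38.5 and 35.02 CPM, against 10.54 and 10.8 CPM (log2 fold change 1.79 ± 0.25, adjusted p = 0.000129; 1.53 with the set term, adjusted p = 0.0253). Adipocyte genes gave 2 calls among 11, both lower (median −0.23), 1 lower with each library left out in turn, and 3 higher and 1 lower with the set term. Adipoq, adiponectin, had 10.4 and 9.93 CPM at day 14, against 14.3 and 9.61 CPM (log2 fold change −0.23, adjusted p = 0.775; 1.72 with the set term, adjusted p = 0.0436).

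Among the vessel genes called higher were the ligand and receptor of the apelin system, which marks sprouting capillary tips and venous endothelium. Apln, apelin, had 18.4 and 17.7 CPM at day 14, against 3.2 and 2.11 CPM in undamaged muscle (log2 fold change 2.78 ± 0.28, adjusted p = 4.71e-06; 2.09 with the set term, adjusted p = 0.00332). Aplnr, its receptor (chromosome 2, 85136225 to 85139923, GRCm38), had 72.4 and 71.9 CPM, against 14.8 and 15.3 CPM (log2 fold change 2.26 ± 0.17, adjusted p = 1.85e-07; 1.74 with the set term, adjusted p = 4.61e-05). Aplnr at day 14 exceeded every other whole-muscle library, which lay between 14.8 and 71.4 CPM. Dll4, a Notch ligand of tip cells and arteries, had 25.9 and 28.04 CPM, against 16.3 and 12.3 CPM (log2 fold change 0.92, adjusted p = 0.000696; 0.73 with the set term, adjusted p = 0.103). Vegfa, the main capillary growth factor, was lower at day 14, at 160.3 and 190.0 CPM against 339.7 and 320.1 CPM (log2 fold change −0.91 ± 0.30, adjusted p = 0.0422; −2.02 with the set term, adjusted p = 0.00341). Its call was lost without single libraries and with library totals alone: the adjusted p was 0.192 without day 14 library 1, 0.113 without day 14 library 2, 0.158 without undamaged library 1 and 0.127 without undamaged library 2. Of 12 angiogenic factors 3 were called higher and 1 lower, with a median of −0.18 (2 and 1 with the set term, median 0.04). Without each of the 4 libraries 3 were higher and none lower.

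Endothelial markers gave 6 higher calls among 12 (median 0.35), 1 with the set term and 5, 3, 5 and 3 with a library left out. Cldn5, the tight junction protein of endothelium, was called in both fits, at 23.9 and 23.99 CPM at day 14, against 10.4 and 13.4 CPM (log2 fold change 1.00 ± 0.15, adjusted p = 0.000194; 1.25 with the set term, adjusted p = 0.0028). Cdh5, the cadherin of endothelial junctions, had 234 and 249 CPM, against 138 and 121 CPM (log2 fold change 0.90 ± 0.16, adjusted p = 0.00084; 0.55 with the set term, adjusted p = 0.171). Kdr, the main VEGF receptor, had 75.8 and 78.1 CPM, against 92.7 and 72.4 CPM, with overlapping groups (adjusted p = 0.707). Rbp7, a retinol-binding protein of capillary endothelium and fat, was among the lowest genes, at 1.68 and 0.735 CPM at day 14, against 15.5 and 12.04 CPM (log2 fold change −3.46 ± 0.34, adjusted p = 3.32e-06; −2.69 with the set term, adjusted p = 0.0044). Without day 14 library 1 its log2 fold change was −4.21. Acta2, smooth muscle actin, had 44.8 and 40.8 CPM at day 14, against 85.1 and 79.2 CPM (log2 fold change −0.94 ± 0.17, adjusted p = 0.000906; −0.53 with the set term, adjusted p = 0.198). Of 12 pericyte and smooth muscle markers 2 were called higher and 3 lower, with 1 call, higher, under the set term. Without a library in turn 1, 0, 1 and 0 were higher and 2, 1, 1 and 3 lower.

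Myelinating Schwann cell genes gave 1 lower call among 11 members (median −0.57), and 1, 0, 0 and 1 with a library left out. None was called by edgeR with the set term (1 lower at an unadjusted p under 0.05). Of 7 repair Schwann cell genes 3 passed the filter and none was called by edgeR or DESeq2 (1 lower at an unadjusted p under 0.05).

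Of the 12 genes named for the highest fold changes, 8 were in none of the lists. Rab6b, a small GTPase of Golgi transport known from neurons (chromosome 9, 103111787 to 103185276), had 23.1 and 18.1 CPM at day 14, against 0.355 and 0.951 CPM in undamaged muscle (log2 fold change 4.93 ± 0.31, adjusted p = 4.66e-08; 4.91 with the set term, adjusted p = 6.52e-06). Without undamaged library 2 the log2 fold change was 5.83, and from day 1 to day 10 its libraries lay between 5.17 and 13.4 CPM. Cyfip2, a subunit of the WAVE complex that regulates actin (chromosome 11, 46193850 to 46312859), had 49.6 and 44.4 CPM, against 3.08 and 3.17 CPM (log2 fold change 3.91 ± 0.30, adjusted p = 2.82e-07; 3.45 with the set term, adjusted p = 4.65e-05). Eps8l1, a relative of the actin regulator Eps8, had 11.4 and 12.04 CPM, against 0.947 and 0.845 CPM (log2 fold change 3.70 ± 0.26, adjusted p = 6.81e-08; 4.23 with the set term, adjusted p = 7.2e-06), and on day 10 2.92 and 2.66 CPM. Kcne1l, a potassium channel subunit, had 6.56 and 7.54 CPM at day 14, against 0.71 and 0.528 CPM, after 61.2 and 47.7 CPM on day 10. Mdfi, an inhibitor of myogenic factors, had 6.78 and 8.09 CPM, against 0.947 and 0.634 CPM. Sez6l2, a membrane protein of neurons, had 6.12 and 6.16 CPM, against 0.71 and 0.634 CPM, and Paqr7, a membrane progestin receptor, had 18.5 and 21.05 CPM, against 2.01 and 3.27 CPM. The log2 fold changes of these last 4 were 3.50, 3.23, 3.18 and 2.88, and 3.98, 2.26, 1.77 and 1.39 with the set term, all called in both fits.

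The lowest fold changes included a cytokine receptor and early response genes. Tnfrsf12a, the receptor of the cytokine TWEAK, which injured muscle induces, had 8.31 and 7.54 CPM at day 14, against 156 and 105 CPM in undamaged muscle (log2 fold change −4.03 ± 0.23, adjusted p = 1.36e-08; −3.88 with the set term, adjusted p = 6.52e-06). Its day 14 libraries were the lowest of all 21. Nr4a3, an orphan nuclear receptor that exercise and adrenergic signals induce, had 5.03 and 6.25 CPM, against 149.6 and 116 CPM (log2 fold change −4.56 ± 0.50, adjusted p = 1.39e-05; −4.01 with the set term, adjusted p = 0.00907). Its undamaged libraries were the highest of all 21, and the other days lay between 5.03 and 27.2 CPM. Atf3, a stress-induced transcription factor, had 3.93 and 4.87 CPM, against 75.1 and 29.7 CPM (log2 fold change −3.57 ± 0.52, adjusted p = 0.000176; −4.43 with the set term, adjusted p = 0.00405). For Atf3 it was −2.76 without undamaged library 1. The classical early genes Fos and Egr1 did not pass, with log2 fold changes of 0.01 and −0.67 (Egr1 was called without undamaged library 2, adjusted p = 0.0247), and 3 of the 13 immediate early and heat shock genes were called lower and 1 higher. With the set term 1 was lower and none higher, and without a library in turn 2, 3, 2 and 4 were lower and 1, 0, 0 and 0 higher. Gdpd3, described above for its code sets, had 0.729 and 0.46 CPM, against 26.4 and 25.7 CPM (log2 fold change −5.40, adjusted p = 0.00589), and 0.79 with the set term (adjusted p = 0.488); the adjusted p was 0.0504 without day 14 library 1 and 0.0598 without day 14 library 2. Slc15a5, a solute carrier, had 1.75 and 1.84 CPM, against 11.2 and 9.82 CPM, with a log2 fold change of −2.55 (adjusted p = 0.00703) and −0.64 with the set term (adjusted p = 0.787); the adjusted p was 0.0579 without day 14 library 1 and 0.0548 without day 14 library 2. Neat1, a long nuclear RNA that was picked after its values were seen, had 471 and 396 CPM at day 14, against 1220 and 1433 CPM (log2 fold change −1.61, adjusted p = 0.01; −3.52 with the set term, adjusted p = 1.26e-05).

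Imprinted genes, many of them active in fetal growth, moved in both directions. H19, a long RNA of the growth locus it shares with Igf2, had 1938 and 2342 CPM at day 14, against 447 and 448 CPM in undamaged muscle (log2 fold change 2.26 ± 0.24, adjusted p = 1e-05; 1.71 with the set term, adjusted p = 0.0028). Its peak was 12319 and 11519 CPM on day 5. Mest, a hydrolase-like protein of embryonic mesoderm, had 21.6 and 19.8 CPM, against 3.79 and 3.17 CPM (log2 fold change 2.58 ± 0.34, adjusted p = 8.36e-05; 1.54 with the set term, adjusted p = 0.00429). Nnat, neuronatin, a membrane protein of brain and fat, went the other way, at 1.31 and 2.76 CPM at day 14, against 13.02 and 13.5 CPM (log2 fold change −2.74 ± 0.48, adjusted p = 0.000832; −2.25 with the set term, adjusted p = 0.0963). Without day 14 library 2 the value for Nnat was −3.33. Among 15 imprinted genes 6 were called higher and 1 lower (median 0.45), and 3 higher and 3 lower with the set term (median −0.27). The 4 refits without a library each called 4 higher.

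Some clock genes differed. Arntl, the BMAL1 subunit that drives the circadian loop, had 6.34 and 6.89 CPM at day 14, against 23.2 and 20.8 CPM in undamaged muscle (log2 fold change −1.73 ± 0.16, adjusted p = 2.47e-06; −1.64 with the set term, adjusted p = 0.00111). Dbp, an output gene in antiphase to it, had 209 and 237 CPM, against 88.6 and 87.4 CPM (log2 fold change 1.34 ± 0.16, adjusted p = 3.06e-05; 1.78 with the set term, adjusted p = 4.61e-05). Per1 had 84.4 and 103 CPM, against 92.4 and 103 CPM, with overlapping groups (adjusted p = 0.81). Of 14 clock genes 1 was called higher and 4 lower (1 and 3 with the set term; 3, 2, 2 and 2 lower with a library left out). The labels give no hour of collection.

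Some proliferation genes were higher at day 14. Of 11 mitosis genes 4 were called higher (median 1.70), none by edgeR with the set term (3 at an unadjusted p under 0.05), and 2, 4, 0 and 1 with a library left out. Top2a, the topoisomerase of dividing cells, had 3.79 and 2.85 CPM at day 14, against 0.829 and 0.845 CPM (log2 fold change 1.99 ± 0.52, adjusted p = 0.0124; 1.41 with the set term, adjusted p = 0.192), and the adjusted p was 0.0798 without day 14 library 1, 0.0786 without undamaged library 1 and 0.0911 without undamaged library 2. Of 10 S phase genes 4 were called higher (median 0.75), none by edgeR with the set term (2 at an unadjusted p under 0.05) and 2, 1, 1 and 1 with a library left out.

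Day 14 was also set against day 10, to see whether muscle was still changing. The 2 comparisons share the day 14 libraries, so their values are given side by side only. Against day 10, 3272 of 14151 genes were called (23.1%), 1521 higher (10.7%) and 1751 lower (12.4%). With the set term 156 of 14484 were called (1.08%), 55 higher (0.380%) and 101 lower (0.697%), of which 122 were among the first calls in the same direction, and day 10 belongs to the lower code set. Without a library in turn the count was 1578 and 1778 (day 14 libraries 1 and 2) and 1222 and 1938 (day 10 libraries 1 and 2), and library totals alone gave 4744 higher and 259 lower calls with an all-gene median of 0.40. Of 12 developmental and regenerating fibre genes 10 were lower at day 14 (median −1.70), and 7 with the set term. Myh3 had 15.4 and 12.04 CPM at day 14, against 86.9 and 94.7 CPM on day 10 (log2 fold change −2.72, adjusted p = 4.26e-08), and Actc1 369 and 384 CPM, against 2405 and 2555 CPM (−2.72, adjusted p = 9.27e-06). Of 11 slow fibre genes 7 were called lower than on day 10 (median −0.90), 4 with the set term, 6 and 4 without day 14 libraries 1 and 2, and 4 and 7 without day 10 libraries 1 and 2. Myh7 had 83.6 and 70.2 CPM at day 14, against 175 and 175 CPM on day 10. Other fibre lists were lower as well in the first fit. Of 14 fast fibre genes 11 were called lower than on day 10 (median −0.74), and none by edgeR with the set term. Of 16 glycolysis and glycogen genes 9 were called lower (median −0.65), and again none by edgeR with the set term. Acta1 had 37176 and 40930 CPM at day 14, against 75722 and 69618 CPM on day 10. The 7 MHC class II genes had a median of 0.04, and H2-Ab1 had 63.7 and 78.9 CPM at day 14, against 69.9 and 72.2 CPM on day 10. The 11 macrophage markers had a median of 0.13, and the collagen list gave 1 higher call among 18 (median 0.09; none by edgeR with the set term or without day 14 library 1 or either day 10 library, 4 at an unadjusted p under 0.05 in the first fit, and 2 by DESeq2). Of 12 endothelial markers 8 were called higher than on day 10 (median 0.53), 1 with the set term, 5 and 5 without day 14 libraries 1 and 2, and 6 and 2 without day 10 libraries 1 and 2. Of 5 sex-linked genes 4 were tested, all of them on the Y chromosome. The other, Xist, a transcript of female cells, did not pass the filter on low counts. All 4 tested genes were called higher than on day 10 by edgeR and DESeq2. None was called by edgeR with the set term (3 at an unadjusted p under 0.05). Without day 14 library 1 or day 10 library 1, 2 were called. Their levels had sums of 194 and 125 CPM at day 14, against 49.6 and 85.7 CPM on day 10. Against undamaged muscle (233 and 243 CPM) none was called by edgeR or DESeq2 (2 lower at an unadjusted p under 0.05).

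Sorted cells of the same series, from undamaged muscle and from day 14, show in which of the sorted populations the named transcripts were found. Muscle fibres were not among these populations, and myogenic progenitors and pericytes have no day 14 library. Since fibro-adipogenic progenitors were gated on PDGFRa EGFP, their Pdgfra level is tied to the gate. All were scaled together as CPM and are described without a test, since the day 14 groups hold 1 or 2 libraries. Xist, a transcript of female cells, had a mean of 539.7 CPM in undamaged inflammatory cells, against 0.114 CPM in the day 14 library. In endothelial cells the values were 39.9 and 0 CPM, and in fibro-adipogenic progenitors 0.241 and 0.0888 CPM. The endothelial mean of 39.9 CPM includes undamaged library 2, described below. Ddx3y, a gene of the Y chromosome, had 105.8 CPM in undamaged and 137.2 CPM in day 14 endothelial cells. In inflammatory cells it had 7.88 and 8.20 CPM. Undamaged pericytes had means of 139.3 CPM for Xist and 1.17 CPM for Ddx3y. Sex may therefore differ between undamaged and day 14 inflammatory and endothelial cells, and between pericytes and other populations. Its part was not tested. H2-Ab1 had 18103 CPM in the 1 day 14 library of inflammatory cells (sorted as CD45+/CD31-), against 2393 and 8959 CPM in the 2 undamaged ones. In all other populations it had under 20 CPM, apart from undamaged endothelial library 2 at 291.5 CPM. That library also had Mpeg1 at 54.9, Col3a1 at 4605 and Pdgfra at 211.0 CPM, above the other 3 of its group (at most 2.79, 288.7 and 22.5 CPM). Endothelial values are given below with and without it. Mpeg1 had 2397 CPM in day 14 inflammatory cells, against 265.1 and 1065 CPM in undamaged ones. Mrc1, in contrast, had 620.5 CPM at day 14, between the 2 undamaged libraries at 51.7 and 2163 CPM. Col3a1 had 34860 and 42696 CPM in day 14 fibro-adipogenic progenitors, against 22164 to 29789 CPM in the 3 undamaged libraries. Pdgfra in the same cells had 497.0 and 709.3 CPM at day 14, against 611.2 to 1402 CPM. Mfap2 had 66.2 and 535.6 CPM there at day 14, against 29.6 to 102.6 CPM.

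Apln and Aplnr were highest in endothelial cells. In endothelial cells Apln had 66.3 CPM in the 1 day 14 library, against 15.3 to 34.5 CPM in 4 undamaged ones (18.7 to 34.5 CPM without library 2), and Aplnr had 775.0 CPM, against 207.2 to 355.4 CPM with or without it. Rbp7, lower in day 14 muscle, had 102.9 CPM in day 14 endothelial cells, against 122.7 to 501.8 CPM in undamaged ones (363.1 to 501.8 CPM without library 2). Cyfip2 was highest in inflammatory cells, at 108.9 CPM at day 14, against 122.6 and 393.3 CPM in undamaged ones. Rab6b was found in every sorted population, from 2.77 to 128.7 CPM, highest in an undamaged pericyte library. Kcne1l stayed at or under 2.40 CPM in all sorted libraries shown, and Slc15a5 had no read in any of them.

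**Figure D4:**
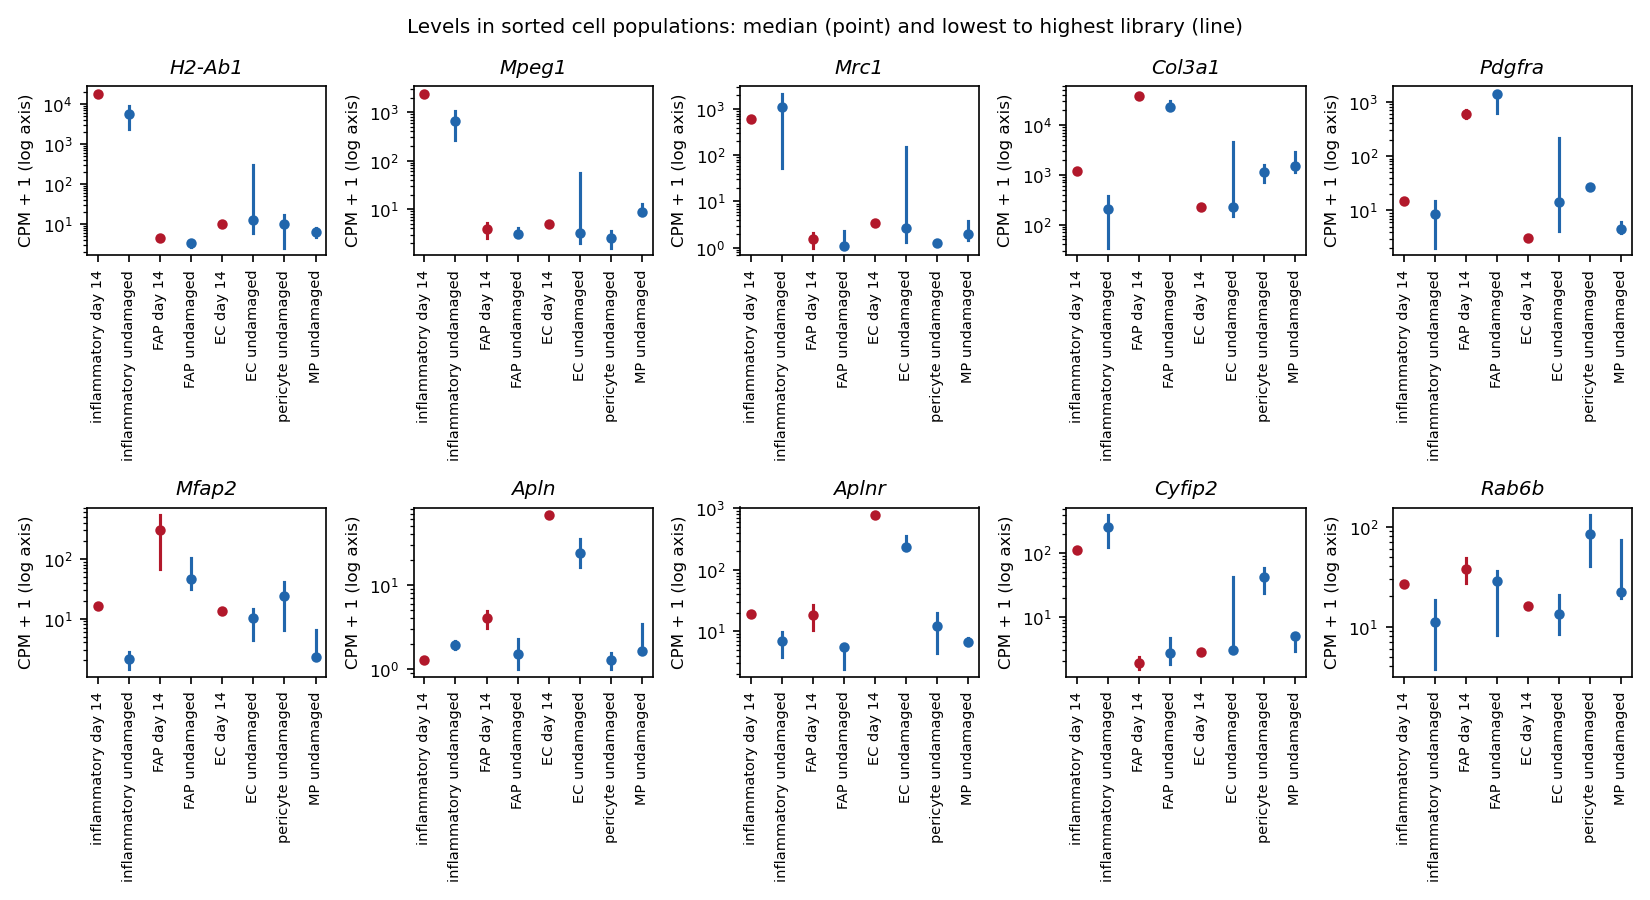
CPM plus 1 (log axis) of 10 genes in sorted cell populations at day 14 (red) and in undamaged muscle (blue). Points are medians and lines run from the lowest to the highest library, with 1 or 2 libraries per group at day 14 and 2 to 4 in undamaged muscle. FAP are fibro-adipogenic progenitors, EC endothelial cells and MP myogenic progenitors. H2-Ab1 and Mpeg1 are highest in inflammatory cells, Col3a1 and Pdgfra in FAP, and Apln and Aplnr in EC.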

How the data were processed

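Poly(A) RNA libraries of whole muscle lysate (RNAzol extraction, NEBNext Ultra II stranded mRNA kit, paired 43-base reads on a NextSeq 500, per the labels' protocols) were available as gene counts. The authors deposited unnormalized read counts for each gene. The submitters' processing notes name bcl2fastq, Bowtie, STAR and mm10, but no counter or strand setting. Antisense, overlapping and near-identical genes are therefore uncertain. Reads of the no-feature and ambiguous rows (7.33 to 8.17% at day 14, 8.34 to 8.63% in undamaged muscle) were left out of all totals and tests. Sequences are from RefSeq (GRCm38.p6).

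Genes were filtered with filterByExpr, scaled by TMM and tested with edgeR 4.0.16 (quasi-likelihood, R 4.3.3) with 1 mean per day over all 21 libraries, so the spread comes from every day. An SE is the log2 fold change divided by the square root of the quasi-likelihood F. Adjusted p-values are Benjamini-Hochberg over all genes tested, with a threshold of 0.05. CPM are scaled by the TMM library size. Both fits were run on simulated counts with known changes at day 14, to see whether those fold changes were recovered. The simulation held no difference between the code sets, so it cannot speak to that part. Tissue checks and code sets were read from counts and labels.

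The members and the 52 gene lists were chosen with earlier results of these data known. Genes were named as the first 3 members of each list, up to 4 called members with the largest change per list (at least 5 CPM on average in either of the groups), and the 12 genes of largest change in each direction, called and with no overlap between groups. Acta1, Ckm, Cd52, Ciita, Cxcl9, H2-DMb1, F13a1, Fbp2, Nes, Neat1 and BC002163 were added after their values were seen. Some genes under this rule are not reported here. Alternatives were other scaling, no filter, a replicate block, the 4 libraries alone, DESeq2 1.42.0, leaving out each library and a fold threshold. The code set term, library totals alone and a crossed block were added after seeing the data.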

Additional observations from a re-analysis of the deposited data

How the results depend on the processing

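For day 14 against undamaged muscle, the count of 2645 calls was 4091 with the 4 libraries fitted alone (53.4% higher, against 61.7%), 953 when a log2 fold change above 1 was also asked, and 789 with the code set as a term (46.1% higher). It lay between 1088 and 1695 without 1 library. Other scaling (RLE, 2638), no filter on low counts (2837), DESeq2 (2668), a replicate block (2511) and library totals alone (2746, 83.0% higher) moved it by less than 1.5 times. For day 14 against day 10, the count of 3272 was 680 with the fold threshold (78.7% higher, against 46.5%), 156 with the set term (35.3% higher), 5003 with library totals (94.8% higher) and between 1222 and 1938 without 1 library. The deviations of same-numbered libraries had a correlation over genes of 0.003 between day 14 and undamaged muscle, and −0.43 between day 14 and day 10. With 1 replicate difference per day, these values cannot decide whether the numbers pair the libraries. The replicate block gave 3151 calls against day 10, and 3201 with crossed numbers. Of 85 named genes called against undamaged muscle, 51 were called in the same direction with the set term, 32 kept the direction without a call, and BC002163 (0.28) and Gdpd3 (0.79) had the opposite one. The replicate block called 84 of them, DESeq2 84 of the 84 it gave an adjusted p, and leaving out 1 library 73 to 75. Among genes that were not called, the sign changed with the set term for Adipoq (1.72), Fbxo32 (0.27), Irf7 (−0.32), Kdr (0.0348), Lox (−0.37), Ly6a (−0.29) and Myh8 (−0.23). Library totals alone turned Kdr (0.0660) and Per1 (0.10). Without 1 library the log2 fold change ranged from −0.49 to 0.0837 for Adipoq, −0.40 to 0.56 for Fos, −0.27 to 0.0894 for Kdr, −0.0880 to 0.22 for Ly6a and −0.21 to 0.0803 for Per1. The causes were not tested. With a library left out, its group's other library is assumed to vary like the other days. At this depth 7 of 13 T and NK cell markers and 3 of 8 B and plasma cell markers passed the filter on low counts.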
